A study of Mus musculus with 3 samples.

Results

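The liver transcription factor network described here consisted of 9 genes, namely Hnf4a, Foxa1, Foxa2, Foxa3, Cebpa, Cebpb, Onecut1, Prox1 and Nr5a2. The members were taken by name, as every probe on the arrays whose RefSeq accession belonged to a listed gene. This gave 11 probes for 9 of the 20284 genes that could be named, and the 9 were also among the 13626 genes read well above background on all 3 arrays. Each of the 11 probes was printed as 1 spot per array.

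The arrays held RNA from livers of c57BL6/J mice that expressed human YAP at 2 days after hydrodynamic tail vein injection (HTVi) of a plasmid. One array each was hybridised for YAP (WT), the wild-type protein, and for YAP (1SA) and YAP (2SA), which the study describes as active mutants. Male adult mice were mainly used according to the study's methods, and the transgene was driven by a mouse AFP enhancer and a minimal albumin promoter that are active in hepatocytes. Delivery by HTVi reaches only part of the hepatocytes. All 3 livers had been injected, and an uninjected liver was not analysed here. The labels leave unsaid whether 1 animal or several gave the RNA of an array. With 1 array per group there was no replicate check, no test between groups was possible, and a difference between constructs cannot be told apart from a difference between liver samples. In whole liver RNA, fewer cells of a type and less RNA per cell cannot be told apart either.

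Hepatocyte identity is held by a small set of transcription factors that bind together at liver enhancers and activate each other's genes. HNF4A is a nuclear receptor required for most hepatocyte gene expression, the FOXA proteins are pioneer factors that open chromatin, and the C/EBP proteins are leucine zipper factors that drive metabolic (Cebpa) and acute phase (Cebpb) genes. ONECUT1, also called HNF6, acts in hepatocytes and in bile duct cells and is part of the network that sets up Foxa2 and Hnf4a expression. PROX1 is a homeobox factor of hepatocytes and lymphatic endothelium, and NR5A2, also called LRH-1, is a nuclear receptor that activates genes of bile acid and cholesterol handling. YAP itself is a coactivator that works through TEAD proteins and is held back by the Hippo pathway.

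The result in short was that 0 of the 9 genes differed 1.5-fold from WT in 1SA, where 7.75% of all genes did. Onecut1, Cebpb and Hnf4a lay above WT in 1SA by more than the error of repeated spots. Beyond that error in either direction lay 34.8% of all genes. With quantile normalisation Hnf4a (0.18) was within it. In 2SA, 3 of the 9, Onecut1, Foxa2 and Foxa3, were at least 1.5-fold lower than in WT, where 3.02% of all genes were. Foxa1 (-0.40) and Prox1 (-0.37) were also lower in 2SA beyond the error of repeated spots, but by less than 1.5-fold. In 2SA against WT, 34.6% of all genes lay beyond this error in either direction. Onecut1 was 2.24-fold lower in 2SA than in WT, Foxa2 was 1.74-fold lower and Foxa3 was 1.74-fold lower. Hnf4a, Cebpa, Cebpb and Nr5a2 lay within the error of repeated spots in 2SA against WT. For Nr5a2 this held for the brighter probe, and the dimmer one (-0.24) lay just outside.

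The sequence upstream of the 3 lower genes is shown first, because they lay low on the same array, and the 2 start regions of Hnf4a follow for contrast. Sequences and start sites are from RefSeq, build GRCm38.p6, and each run holds the 250 bases before a start site, 5′ to 3′ on the strand of the gene. Capitals mark matches on either strand to 6 short motifs, which were TGTTTAC for FOXA, AAAGTCC for HNF4, ATTGAT for ONECUT, TTGCNNAA for C/EBP, CAAGGTC for NR5A2 and GGAATG for TEAD. No motif is contained in another. The Onecut1 window was chr9:74861671-74861920 on the plus strand, and that of Foxa3 was chr7:19023540-19023789 on the minus strand. The Foxa2 window was chr2:148046970-148047219 on the minus strand, the farthest upstream of 3 listed start sites. The Hnf4a windows were chr2:163506607-163506856 for the upstream start and chr2:163546905-163547154 for the downstream start, both on the plus strand.
Onecut1: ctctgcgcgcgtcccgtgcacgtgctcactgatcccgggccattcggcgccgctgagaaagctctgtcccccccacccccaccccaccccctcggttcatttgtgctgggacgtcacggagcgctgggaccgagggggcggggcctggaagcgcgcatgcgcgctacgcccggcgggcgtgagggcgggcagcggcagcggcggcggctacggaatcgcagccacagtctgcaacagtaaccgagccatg
Foxa3: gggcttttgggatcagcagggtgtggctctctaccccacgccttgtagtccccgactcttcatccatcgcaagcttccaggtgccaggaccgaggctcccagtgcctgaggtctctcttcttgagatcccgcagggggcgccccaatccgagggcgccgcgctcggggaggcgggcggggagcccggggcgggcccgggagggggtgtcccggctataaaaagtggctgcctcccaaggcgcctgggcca
Foxa2: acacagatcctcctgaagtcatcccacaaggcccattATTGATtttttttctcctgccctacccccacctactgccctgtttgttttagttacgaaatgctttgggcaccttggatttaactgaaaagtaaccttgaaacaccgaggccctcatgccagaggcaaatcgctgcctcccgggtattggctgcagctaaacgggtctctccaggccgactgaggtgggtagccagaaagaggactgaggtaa
Hnf4a upstream start: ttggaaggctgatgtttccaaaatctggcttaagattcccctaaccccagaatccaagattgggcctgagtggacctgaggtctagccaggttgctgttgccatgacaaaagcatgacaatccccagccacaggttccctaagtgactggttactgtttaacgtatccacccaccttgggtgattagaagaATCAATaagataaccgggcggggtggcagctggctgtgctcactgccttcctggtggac
Hnf4a downstream start: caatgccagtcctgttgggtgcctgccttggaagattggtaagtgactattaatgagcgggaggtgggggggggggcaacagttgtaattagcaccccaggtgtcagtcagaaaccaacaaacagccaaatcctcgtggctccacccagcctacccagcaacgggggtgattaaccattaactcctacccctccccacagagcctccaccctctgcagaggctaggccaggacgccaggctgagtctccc

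The Onecut1 and Foxa3 windows held none of the 6 motifs. The Foxa2 window held 1 ONECUT match, 213 to 208 bases before the start, and the windows of the other two Foxa2 start sites held none. The upstream Hnf4a window also held 1 ONECUT match, at 59 to 54 bases, and the downstream one held no match. Over the 14 start sites listed for the 9 genes, 4 windows held at least 1 match and 10 held none. The share of all windows with at least 1 of the 6 motifs was not computed. The shares below are for single motifs and are no background for this count. Among all 32851 windows of this length, 6.72% held the ONECUT motif, 3.17% the FOXA motif, 3.58% the HNF4 motif, 9.56% the C/EBP motif, 3.32% the NR5A2 motif and 12.6% the TEAD motif. A match describes letters in this window and is not evidence of a bound site, and a window without a match says nothing about sites elsewhere.

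All 9 genes were well above background on every array. The scaled signals below are multiples of the 75th percentile of an array's own signal, and differences are differences of their log2 values. That percentile ranged from 275.7 to 319.5 over the arrays, and between 28972 and 30784 of the 55681 probes were well above background. Repeated spots of the same probe on 1 array had a median SD near 0.07 on the log2 scale. From this spot error alone, a difference between arrays would have an SD of 0.10. Differences within 2 of these SDs, that is within 0.21, are described below as within the error of repeated spots. This limit holds spot error within an array only. It leaves out labelling, hybridisation and other differences between arrays, and the spread between animals. Feature Extraction's own error estimate of the members' spots, 10.0% to 10.5% of the signal, was wider than this spot error. A difference beyond the limit may therefore still be technical. Of all genes, 34.8% lay beyond it in 1SA against WT, 34.6% in 2SA against WT and 45.0% in 2SA against 1SA. Of the 9 factors, 3, 5 and 7 lay beyond it in these comparisons. Scaled signals compare arrays for 1 probe and are not a comparison of levels between genes.

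Hnf4a, the nuclear receptor at the centre of the network, had a scaled signal of 138 in WT, 167 in 1SA and 127 in 2SA. The 1SA array was highest and the other two lay close together. The difference from WT was 0.27 for the 1SA array, beyond the error of repeated spots, and -0.12 for the 2SA array, within it. With quantile normalisation the 1SA difference was 0.18, also within that error. Between the mutants the difference was -0.39, 2SA minus 1SA, without that normalisation.

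The FOXA family was compared next. Foxa1 had a scaled signal of 6.51 in WT, 5.84 in 1SA and 4.92 in 2SA, so it was lowest in 2SA. Against WT it differed by -0.16 for 1SA and by -0.40 for 2SA. Foxa2 was read by 2 probes of the same RefSeq entry. The brighter probe had a scaled signal of 14.4 in WT, 13.5 in 1SA and 8.29 in 2SA, and the dimmer probe had 4.02, 3.61 and 2.49. Both probes put 2SA far below the other arrays, and WT and 1SA close together. For 1SA the brighter probe gave a difference from WT of -0.10 and the dimmer one -0.16, and for 2SA they gave -0.80 and -0.69. Foxa3 had a scaled signal of 3.84 in WT, 3.95 in 1SA and 2.21 in 2SA. It was likewise low in 2SA alone, where it was 1.74-fold lower than in WT and 1.79-fold lower than in 1SA, and its difference in 1SA was 0.04.

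The family members can be set against each other without any scaling between arrays, because a constant for an array cancels. The shift of Foxa2 against Foxa1 was 0.06 in 1SA and -0.40 in 2SA, and that of Foxa3 against Foxa1 was 0.20 in 1SA and -0.39 in 2SA. Foxa3 against Foxa2 shifted by 0.14 in 1SA and 0.003 in 2SA. These values are from the brighter Foxa2 probe, and the dimmer one differed less from WT in 2SA.

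The C/EBP factors behaved differently. Cebpa had a scaled signal of 23.6 in WT, 22.4 in 1SA and 24.0 in 2SA, a total range of 0.10 on the log2 scale, the narrowest of the 9 genes. Cebpb had 25.3 in WT, 32.4 in 1SA and 25.5 in 2SA. It was higher on the 1SA array alone, by 0.36 against WT, and its difference in 2SA against WT was 0.01. The shift of Cebpb against Cebpa was 0.43 in 1SA and -0.01 in 2SA, and this value is again free of array scaling.

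Onecut1 differed most. Its scaled signal was 1.12 in WT, 1.47 in 1SA and 0.500 in 2SA. The 1SA array was highest and the 2SA array lowest, so that the mutants lay on opposite sides of WT. The differences from WT were 0.39 for 1SA and -1.17 for 2SA, and 2SA was 2.94-fold lower than 1SA. Of 13626 genes, 98.9% had a smaller difference in 2SA against WT and 99.0% had a smaller one between the mutants. A pattern of higher in 1SA and lower in 2SA than in WT, both beyond the error of repeated spots, was shown by 345 genes (2.53%). Onecut1 was a dim probe with 1 spot per array. Repeated probes of a signal from 100 to 500, the range of Onecut1 on these arrays, had a median SD of 0.08 on each array and a 95th percentile of at most 0.13. Against Hnf4a its shift was 0.12 in 1SA and -1.05 in 2SA. The second ONECUT factor, Onecut2, lay 0.32 above WT in 1SA and differed by -0.19 in 2SA, the same order with smaller differences.

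Prox1 and Nr5a2 varied less. Prox1 had a scaled signal of 0.852 in WT, 0.849 in 1SA and 0.661 in 2SA. The 2SA array stood below the other two, with a difference from WT of -0.37 beside -0.01 for 1SA. Nr5a2 was read by 2 probes. The brighter probe had a scaled signal of 5.93 in WT, 6.34 in 1SA and 5.62 in 2SA, and the dimmer probe had 0.326, 0.330 and 0.276. The order of the arrays was the same on both, with 2SA lowest and 1SA highest. In 2SA against WT the brighter probe differed by -0.08, within the error of repeated spots, and the dimmer one by -0.24, just outside it.

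**Figure D1:**
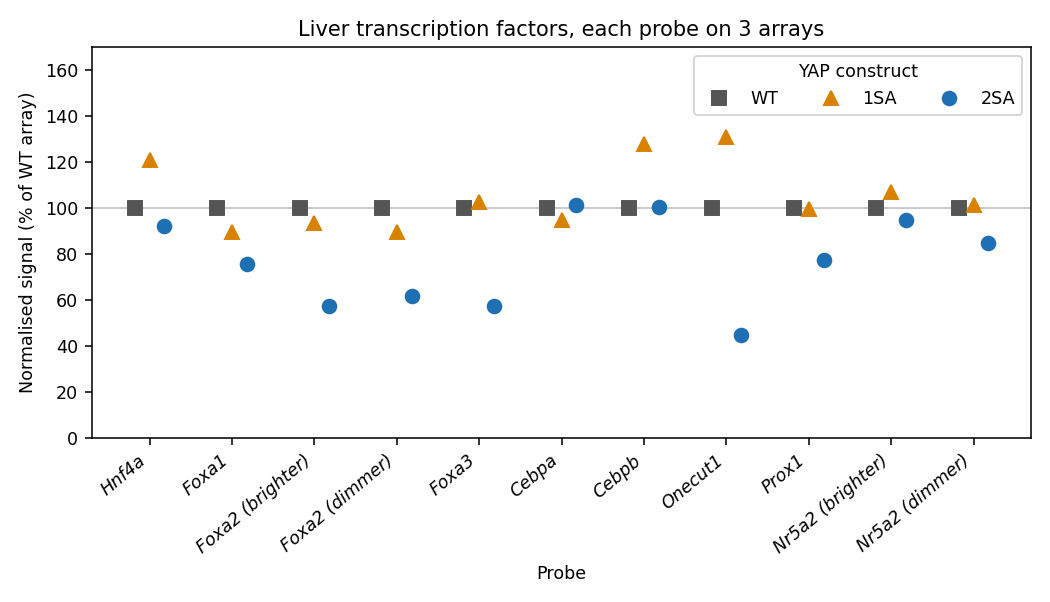
Normalised signal of the 11 probes of the 9 genes as a percent of the same probe on the WT array (y axis, starting at 0), for the WT (square), 1SA (triangle) and 2SA (circle) arrays, 1 spot per point and no error bar because each group is 1 array. The 2SA points of Onecut1, both Foxa2 probes and Foxa3 lie far below 100%, whereas the Cebpa points lie close together.

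Counted together, 0 of the 9 genes were 1.5-fold higher or lower in 1SA than in WT, where 7.75% of all genes were. In 2SA, 3 of 9 were at least 1.5-fold lower than in WT, where 3.02% of all genes were, and 0 of 9 were higher, where 3.79% were. Against 1SA the same 3 genes were at least 1.5-fold lower in 2SA, where 4.56% of all genes were, though the dimmer Foxa2 probe (-0.54) was not, and the brighter one was at the threshold with normexp (-0.59). The comparisons share arrays, so these counts are not independent of one another. Only Onecut1 was at least 2-fold lower in 2SA, where 0.543% of all genes were against WT and 1.12% against 1SA. Against WT this call was lost with normexp background correction, where Onecut1 was at -0.93. The median difference of the 9 genes was 0.04 in 1SA against WT, beside -0.002 over all genes. With the series matrix values, which differ by a constant per array, it was -0.006 beside -0.05 over all genes. It was -0.37 in 2SA against WT and -0.36 in 2SA against 1SA, each beside -0.03 over all genes. The 2SA array was the lowest of the 3 for 7 of the 9 genes, and for 42.1% of all genes. The 1SA array was the highest for 5 of the 9, and for 38.5% of all genes. Since these genes regulate each other, they are not independent readings.

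**Figure D2:**
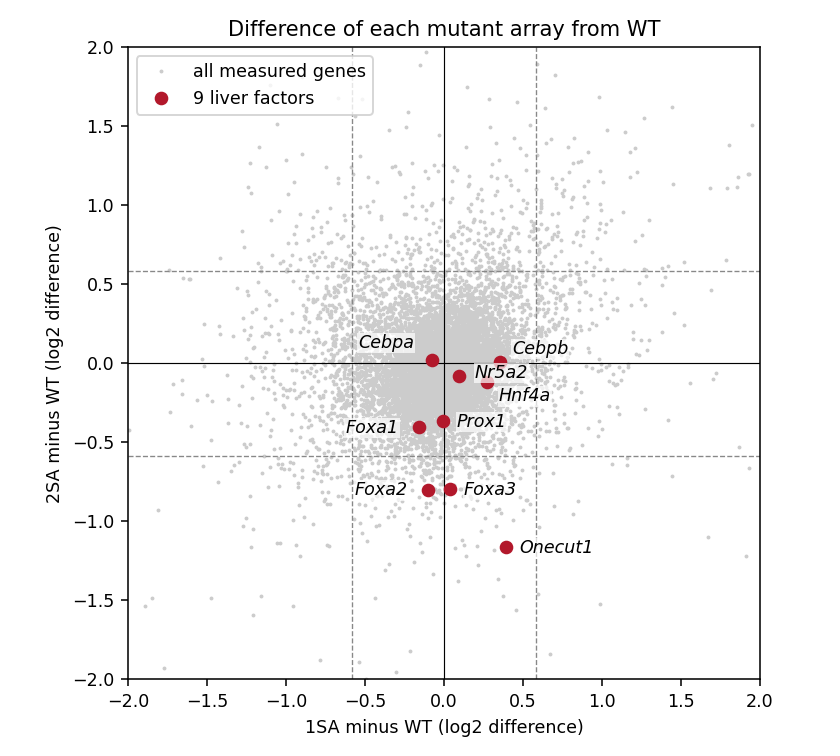
Log2 difference from WT in 1SA (x axis) and in 2SA (y axis) for all measured genes (grey points) and the 9 liver factors (red points, labelled), with dashed lines at 1.5-fold. The 9 factors lie between the vertical dashed lines, and Onecut1, Foxa2 and Foxa3 lie below the lower horizontal one. A further 43 genes fall outside the axes.

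The genes with the most similar pattern were sought by the distance between their pair of differences from WT and that of a member, over 3 arrays. The nearest to Onecut1 were Tnnc1, Usp2 and Lonrf1, at distances of 0.07, 0.15 and 0.18 on the log2 scale. Only 1 gene lay within 0.10 of Onecut1. Foxa2 lay nearest to Gstm3, 1700016H13Rik and Fam102a, with 26 genes within 0.10, and Foxa3 to Nepn, Wnk4 and Lamb1, with 23 genes within 0.10. With 3 arrays such a likeness is a description of these livers only.

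The remaining factors of the hepatocyte network were taken as a list of 33 genes, of which 30 were measured on all arrays. Their median difference from WT was -0.08 for either mutant. In 1SA, 0 were at least 1.5-fold higher, where 3.08% of all genes were, and 1 was lower, where 4.67% were. The lower gene was the stress factor Atf5 (-0.63). In 2SA, 0 were higher and 3 were lower, where 3.02% of all genes were. These were Hhex, Cebpe and Nr1i3. Hhex, a homeobox factor of early liver development, had a scaled signal of 30.5 in WT, 29.1 in 1SA and 12.1 in 2SA. Like Foxa2 and Foxa3 it was low in 2SA alone, with differences from WT of -0.07 and -1.33. Nr1i3 (CAR), a xenobiotic receptor, differed by 0.14 and -0.65, and its other probe differed by 0.23 and -0.63. Cebpe, a C/EBP factor best known from granulocytes, differed by 0.16 and -0.66.

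Other members of this list lay closer to WT. Cebpd, a C/EBP factor of the acute phase, was highest in 1SA (0.57) and lower in 2SA (-0.40), the same order as Onecut1. The highest of the list in 2SA were Zbtb20 (0.28), a repressor of fetal Afp, and Nr0b2 (0.21), which encodes the corepressor SHP that binds NR5A2 and HNF4A. In 1SA, Zbtb20 (0.48) was second to Cebpd, and Gata6 (-0.47) was second lowest. Nr1h4 (FXR), the bile acid receptor, differed by -0.08 and 0.08.

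Of 16 coregulators and dimer partners, all were measured, and their median was 0.02 in each mutant. The histone acetyltransferase gene Crebbp was at least 1.5-fold lower in both, at -0.73 in 1SA and -0.62 in 2SA. Both values share the WT array. Ddit3, which encodes the C/EBP partner CHOP, was lower in 1SA (-0.67) and differed by 0.08 in 2SA. Med1, a subunit of Mediator that binds nuclear receptors, was higher in 1SA on its brightest probe (1.07), but its 4 probes ranged from 0.13 to 1.07. In 2SA they ranged from -0.17 to 0.60, so the direction of Med1 in 2SA depended on the probe. The lowest of the list in 2SA after Crebbp was Ep300 (-0.39), and the highest in 2SA after Med1 was Ddit3. In 1SA the second highest was Kat2b (0.29).

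Target genes of the network were described next, from lists of textbook targets with 43 distinct genes, all measured. Over these 43 the 1SA median was 0.09 and the 2SA median -0.07. In 1SA, 3 were at least 1.5-fold higher (Cyp8b1, Cyp27a1 and Igfbp1), where 3.08% of all genes were, and 1 was lower (Afp), where 4.67% were. In 2SA, 2 were higher (Cyp8b1 and Igfbp1), where 3.79% of all genes were, and 2 were lower (Cyp7a1 and Abcg8), where 3.02% were. The other 39 lay within 1.5-fold in each comparison.

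For the 16 HNF4A targets the 1SA median was 0.09 and the 2SA median -0.07. The highest were bile acid synthesis genes. Cyp8b1, the sterol 12α-hydroxylase, had a scaled signal of 6.04 in WT, 10.8 in 1SA and 10.7 in 2SA, and Cyp27a1 differed from WT by 0.69 and 0.49. The lowest was Apoa1 (-0.23) in 1SA, and Apoa4 (-0.47) and Apob (-0.20) were lowest in 2SA. Slc10a1, the bile acid uptake carrier, had 2 probes of opposite sign, -0.05 and 0.47 in 1SA and -0.16 and 0.41 in 2SA.

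For the 9 FOXA targets the 1SA median was 0.10 and the 2SA median -0.09, beside -0.80 for Foxa2 itself in 2SA. Igfbp1, an IGF binding protein, had a scaled signal of 9.13 in WT, 15.4 in 1SA and 19.2 in 2SA, highest in 2SA where Foxa2 was lowest. Tat (tyrosine aminotransferase) went with Foxa2 in direction in 2SA, at 0.43 in 1SA and -0.33 in 2SA. Alb, which encodes albumin, differed by 0.10 and -0.29, and Pck1, of gluconeogenesis, by 0.31 and -0.27. Afp, the fetal albumin relative, was lower in 1SA (-0.63) and differed by 0.13 in 2SA. G6pc, which releases glucose from its phosphate, was second lowest in 1SA (-0.06) and second highest in 2SA (0.29).

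For the 8 metabolic C/EBP targets the 1SA median was 0.08 and the 2SA median -0.26. The lowest were Hamp (-0.51), the iron hormone hepcidin, and G6pc in 1SA, and the glycogen synthase gene Gys2 (-0.44) and Tat in 2SA. The highest in 1SA were Tat and the urea cycle gene Ass1 (0.40), and in 2SA G6pc and Ass1 (-0.10). The 8 acute phase C/EBP targets were all above WT in 1SA, the array on which Cebpb and Cebpd were highest, with a median of 0.19 and a range from 0.03 to 0.49. Of these only Lcn2 and Saa1 lay beyond the error of repeated spots, and 7 of the 8 hepatocyte markers were also above WT in 1SA. In 2SA the median of the acute phase targets was -0.07 and 7 of 8 lay below WT, as did 5 of the 8 hepatocyte markers. All 8 acute phase targets were lower in 2SA than in 1SA, with a median of -0.21. The same held for 7 of the 8 hepatocyte markers (median -0.18) and 13 of the 16 HNF4A targets (median -0.14). A link of the acute phase targets to Cebpb or Cebpd was not tested. Of the 8 acute phase targets, 1 was lower in 2SA than in 1SA by 1.5-fold, where 4.56% of all genes were. That gene was Lcn2, an iron-binding acute phase protein, whose difference was 0.49 for 1SA and -0.40 for 2SA, each against WT. Saa1 was the next highest in 1SA (0.29) and the highest in 2SA (0.12), Crp the next lowest in 2SA (-0.21).

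For the 7 NR5A2 targets the 1SA median was -0.10 and the 2SA median -0.02, the latter turning to 0.03 with the mean of all measured probes. Cyp7a1, the rate-limiting enzyme of bile acid synthesis, had a scaled signal of 11.4 in WT, 9.87 in 1SA and 3.25 in 2SA. It was much lower in 2SA than on the other arrays, by -1.82 against WT and -1.60 against 1SA. The sterol exporter genes Abcg5 and Abcg8 were also lowest in 2SA, at -0.54 and -0.59 against WT. Cyp8b1, in contrast, was higher in both mutants, by 0.83 and 0.82.

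Cyp7a1 is also one of 6 ONECUT1 targets that were listed, whose 1SA median was 0.01 and whose 2SA median was 0.25. The 6 genes went both ways in 2SA. Cyp7a1 and Ttr (-0.09) lay below WT, and Igfbp1 (1.08) and Pfkfb1 (0.44) were the highest above it. Pfkfb1 encodes the bifunctional enzyme of glycolytic control whose promoter first served to describe HNF6.

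**Figure D3:**
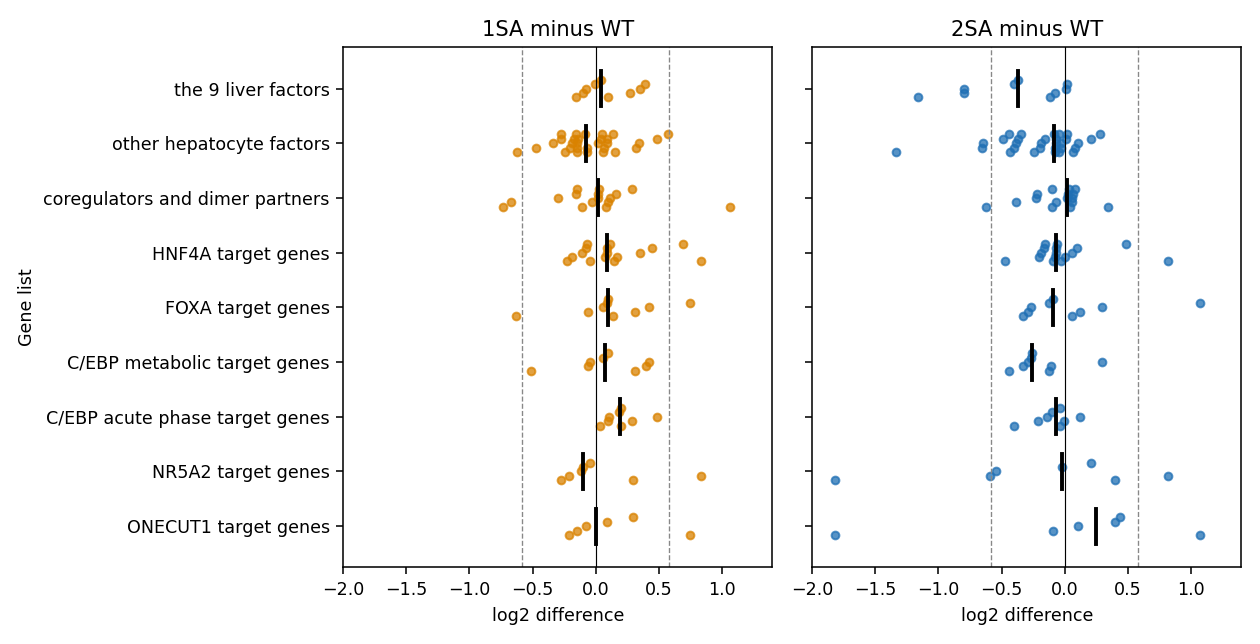
Log2 difference from WT of every measured gene of the 9 factors, the other factors, the coregulators and the target lists (points; a gene may stand in more than 1 list) in 1SA (left) and 2SA (right), with the list median (black bar) and dashed lines at 1.5-fold. The median of the 9 liver factors lies at -0.37 in 2SA, and the medians of the other 8 lists plotted lie between -0.26 and 0.25 in 2SA.

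Markers of the cell types in the samples were read beside these values. All 8 hepatocyte markers were measured, and their 1SA differences from WT ran from -0.23 to 0.43 (median 0.12) and their 2SA differences from -0.33 to 0.09 (median -0.11). Onecut1, Foxa2, Foxa3, Foxa1 (-0.40) and Prox1 (-0.37) in 2SA lay below this range. So did other genes, among them Hhex (-1.33) and Cyp7a1 (-1.82). The part of hepatocyte content in these differences was not tested. Bile duct cells also express ONECUT1 and FOXA factors. Of the 7 bile duct markers, all measured, 4 were at least 1.5-fold lower in 1SA, where 4.67% of all genes were, and 0 in 2SA, where 3.02% were, with medians of -0.73 and -0.06. Onecut1 was higher in 1SA (0.39) and lower in 2SA (-1.17). In 1SA, 6 bile duct markers lay below WT and 1, Cftr, lay above it. Cftr had the order of Onecut1, at 0.43 in 1SA and -0.13 in 2SA. Some bile duct markers were dim. Unscaled signals of Krt7 were 31 in WT, 17 in 1SA and 36 in 2SA. Those of Epcam were 32, 16 and 34, and those of Cftr 14, 18 and 14. The marker lowest in 1SA (-1.73) was not dim, with unscaled signals of 3536 in WT, 1009 in 1SA and 3132 in 2SA. The part of bile duct cells in the differences of Onecut1 was not tested. Lymphatic endothelium also expresses Prox1, and 2 of its 4 markers were measured, Pdpn (-1.02 in 1SA and -0.28 in 2SA) and Flt4 (0.12 and 0.33).

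Markers of other cell types also differed between the arrays. Of 7 Kupffer cell markers, 5 were at least 1.5-fold lower in 2SA, where 3.02% of all genes were, and the 2SA median was -0.90 beside a 1SA median of -0.36. Their summed scaled signal was 237 in WT, 179 in 1SA and 136 in 2SA. In 1SA, 5 of the 7 lay below WT, among them Marco (-1.21), whereas the lectin gene Clec4f had the order of Onecut1, at 0.45 in 1SA and -1.56 in 2SA. Of 5 stellate cell markers, 3 were at least 1.5-fold lower in 2SA, with a median of -0.60. In 1SA, 3 of the 5 lay above WT (median 0.10), and all 5 lay below it in 2SA. Some stellate cell markers thus also had the order of Onecut1. The 6 markers of sinusoidal endothelium had medians of 0.03 and -0.12, and the lowest in 2SA was Clec4g (-0.59). The 3 measured of 5 erythroid markers had medians of 0.90 and 0.45. Of 6 markers of dividing cells, all lay above WT in both mutants, with medians of 0.69 and 0.65. The part of these cells in the differences of the 9 factors was not tested. Of 6 granulocyte and monocyte markers 3 were measured on all arrays, and Mpo and Ngp were not among them.

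Onecut1 depended most on the processing. Over 8 ways of processing, the difference of Onecut1 in 2SA against WT ranged from -1.17 to -0.93, with the smallest difference under normexp, that of Foxa2 from -0.80 to -0.75 and that of Foxa3 from -0.80 to -0.73. Hnf4a ranged from -0.12 to -0.07, Foxa1 from -0.40 to -0.36 and Prox1 from -0.37 to -0.30.

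**Figure D4:**
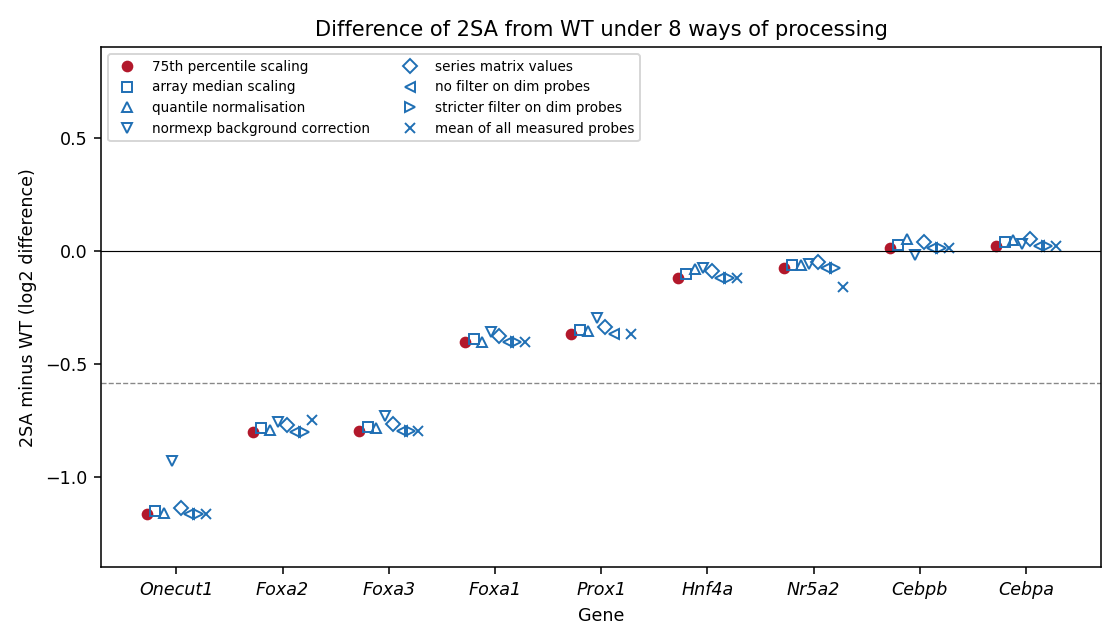
Log2 difference of 2SA from WT for each of the 9 genes (x axis, ordered by value) under 75th percentile scaling (red) and 7 alternatives (blue), with a dashed line at 1.5-fold lower. Onecut1, Foxa2 and Foxa3 lie below the dashed line under each, and Prox1 has no point under the stricter filter.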

How the data were processed

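Total RNA of mouse liver was labelled with Cy3 and hybridised to 1-colour Agilent SurePrint arrays, and 3 arrays on 1 slide were used, 1 per group. The authors extracted the signals with Feature Extraction 10.10.1.1. The deposited intensity is background-subtracted and detrended within an array, linear, and not scaled between arrays. A second table of the authors, the series matrix, gives this intensity times a constant that differs by array (2.81 to 3.08) and whose source is unstated. The array design was placed on mm9 per the file headers.

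Flagged outlier spots (148 to 182 per array) and control spots were left out, and no spot was saturated. Log2 intensities were averaged per probe, and scaled by subtracting the log2 75th percentile of each array. A probe counted as measured when at least 50% of its spots were marked well above background. Of 55681 probes, 26762 were matched by unversioned RefSeq accession to 20284 symbols of GRCm38.p6, used for names only. The brightest of a gene's probes that were measured on every array stood for the gene. Members and lists were chosen with earlier results of these data known. Genes named from lists were the 2 highest and 2 lowest of each in either mutant against WT and those past 1.5-fold in both. Nr1i3, Onecut2, Nr1h4, Pck1 and Abcg5 fall outside this rule and were named after their values were seen. Some list members that the rule would name are counted in their lists but not reported here by name.

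No test was run, since each group was 1 array, and this number limits the precision. Feature Extraction's own error estimate of the members' spots was 10.0% to 10.5% of the signal. The alternatives were median scaling, quantile normalisation, normexp (offset 50, limma 3.58.1, on median spot and local background signal), the series matrix, no filter and a stricter filter on dim probes, the mean of all measured probes, and a 2-fold threshold. The steps were checked on simulated data. Python 3.11.15, pandas 2.3.3, numpy 2.4.6, matplotlib 3.10.9 and R 4.3.3 were used.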

Additional observations from a re-analysis of the deposited data

Results flagged for a closer look

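Onecut1 lay on opposite sides of WT in the mutants, above it in 1SA (0.39) and below it in 2SA (-1.17), with a difference of -1.56 between 2SA and 1SA. It was singled out because the only sample of each mutant moved the opposite way from WT, by more than the error of repeated spots. The difference between the mutants was not tested, since each group was 1 array.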

How the results depend on the processing

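No paired analysis was possible because only 1 array stood for each group and no result came from a test. For the same reason no array was left out in turn and the slide was not fitted as a block. The median difference of the 9 genes in 2SA against WT was -0.37 and became -0.26 with the stricter filter, which left out Prox1. The count of 3 genes at least 1.5-fold lower in 2SA became 1 at 2-fold, both against WT and against 1SA. The other medians and counts of the 9 genes moved by less than the repeated-spot SD of 0.10, or not at all. Of 186 recomputed differences of single members, 182 moved by less than that SD and 4 by more. Many of the 186 were fixed in advance. Both filter settings kept the same probe and scaling for each member left in, and the mean of all measured probes could change only Foxa2 and Nr5a2. The count of 182 is therefore no measure of robustness. None of the differences that passed 1.5-fold changed sign. With normexp, Onecut1 was -0.93 in 2SA against WT and -1.30 against 1SA, and Foxa2 was -0.59 against 1SA. Onecut1 was then no longer 2-fold lower than WT. With quantile normalisation Hnf4a was -0.26 in 2SA against 1SA. It was 0.18 in 1SA against WT, which was then within the error of repeated spots. Of 54 list medians, 53 held with the mean of all measured probes, and the median of lymphocyte markers in 2SA became 0.14. That setting changes only genes with more than 1 measured probe, so some of these medians could not move.

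The share of all genes past 1.5-fold was 7.75% (1056 genes) in 1SA against WT, 6.80% (927) in 2SA against WT and 11.6% (1575) between the mutants. It was 3.19% (434), 2.92% (398) and 5.94% (809) with normexp, 14.5% (2937), 13.8% (2798) and 17.0% (3449) with no filter, and 4.94% (424), 3.84% (329) and 7.84% (672) with the stricter filter. At 2-fold it was 1.86% (254), 1.67% (227) and 3.60% (490). Except for the offset of normexp, which shrinks differences of dim probes by construction, and the number of genes tested, the cause was not tested. No scaling moved the median of all genes by over 0.1.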
